A study of Homo sapiens with 12 samples.

Results

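The nuclear genes for the subunits of the respiratory chain were taken by symbol from the platform annotation (NDUFA, NDUFB, NDUFC, NDUFS, NDUFV, SDH, UQCR, COX and ATP5 families, without the NDUFAF assembly factors). They came to 73 protein-coding genes of 19775 genes on the arrays, and each was read by the one probe set of a single symbol that had the highest mean log2 signal. Complex I had 32 of these genes, complex II 3, complex III 6, complex IV 15 and complex V, the ATP synthase, 17. The rule used no measured value other than this overall level, but the genes were chosen with earlier results of these data known. A further 5 matching symbols belong to 2 pseudogenes and 3 non-coding RNAs and were left out. The symbol rule did not take in all COX and ATP5 genes, and COX4I1 and ATP5IF1 were not among the 73.

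The arrays came from Z-138 and Maver-1, established lines of mantle cell lymphoma, a tumour of B cells. The labels give a nonsense change in TRAF2 for Z-138 and a deletion of TRAF3 for Maver-1. Both lines were carried under puromycin with an inducible hairpin, either one of 2 hairpins against MAP3K14 (NIKsh#1, NIKsh#2), which encodes the kinase NIK, or a non-targeting one (NTC). The 6 cultures stood for 7 days in 100 ng/ml or 0 ng/ml doxycycline (DOX, no DOX), which gave 8 groups. With DOX these were Z-138 NIKsh (2 arrays), Maver-1 NIKsh (2 arrays), Z-138 NTC (1 array) and Maver-1 NTC (1 array), and the same 4 groups existed without DOX. Each culture gave a single array per condition, so the number of arrays limits every precision below. The labels name no separate replicate cultures beyond these, and a p-value here reflects no more than the variation among the 6 cultures.

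The respiratory chain passes electrons from NADH and succinate through complexes I to IV to oxygen, and the proton gradient built on the way drives ATP synthesis by complex V. Most subunits are encoded in the nucleus, and the transcription factors NRF1, GABPA and YY1 are known regulators of these genes, while a small core is encoded in mitochondrial DNA. Doxycycline itself is a tetracycline, a class that can inhibit mitochondrial ribosomes, and the NTC cultures received it as the NIKsh cultures did.

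Of the 73 genes, 68 had a mean signal of at least 12.55, the median of the array medians, and were tested among 11548 genes. The 5 others were COX6A2, COX6B2, COX7A1, COX7B2 and COX8C, all complex IV isoforms known from muscle, testis or other specialised tissue, with mean signals of 8.84, 7.47, 1.18, 3.28 and 1.92. Their widely expressed partners COX6A1, COX6B1, COX7A2, COX7B and COX8A were all tested. Another 8 matching symbols, NDUFC2, NDUFS5, NDUFS8 and UQCRH among them, occurred solely on probe sets shared with other genes and have no tests here. Mitochondrially encoded subunits were not analysed here.

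Array medians lay between 10.6 and 14.1 on a common scale, and MAP3K14 signal, on the log2 scale, changed with DOX by -0.68 and -0.08 in Z-138 NIKsh#1 and NIKsh#2 and by -0.44 and -0.49 in the Maver-1 pair, against 0.24 and 0.76 in the NTC cultures of Z-138 and of Maver-1. The B cell genes MS4A1, CD79A, CD79B and PAX5 had mean signals of 3304, 746, 747 and 739 in Z-138 and 3712, 835, 970 and 461 in Maver-1. The T cell, NK cell and monocyte genes CD3D, CD3E, CD2, KLRD1, CD14 and CSF1R had mean signals under the filter, from 1.19 for CD14 to 5.18 for KLRD1. NKG7, LYZ and ITGAM of the same lists lay above it, at 12.9, 14.6 and 15.2. Between the lines, CD3G differed, with mean signals of 121 for Z-138 against 4.03 for Maver-1, as did EPCAM, with 2.82 for Z-138 against 241 for Maver-1. PECAM1 had 210 for Z-138 and 688 for Maver-1, and KRT8 16.6 and 24.9. The ACTB probe sets at the 3' and 5' ends had a signal ratio, which rises as RNA or its copy shortens, of 2.86, 2.92 and 2.33 in untreated Z-138 NIKsh#1, NIKsh#2 and NTC and 4.68, 3.66 and 6.88 in the same Maver-1 cultures. With DOX it was 4.62, 5.09 and 6.34 in Z-138 and 4.32, 3.80 and 4.43 in Maver-1, so that the order of the lines was reversed.

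Promoters are shown for 4 genes, because binding motifs of the factors named above are a shared sequence feature that the choice by symbol did not use. RefSeq promoters on GRCh38.p14, running from 250 bases before to 50 after each annotated start, were matched for 63 of the 73 genes, and both strands were searched. The NRF1 motif, GCGCA and GCGC parted by any base, occurred in 16 of the 63 (25.4%), against 9.67% of 15843 protein-coding genes and 6.98% of 27305 genes of any kind. The ETS motif CCGGAAG, bound by GABPA among others, occurred in 18 (28.6%), against 16.53% of protein-coding genes and 12.16% of all genes. The YY1 motif AAGATGGC, whose first 3 letters can also be the last 3 of the ETS motif, occurred in 11 (17.5%), against 4.66% and 3.52%. The NF-kB motif, GGGAC followed directly by TTTCC, occurred in 0 of the 63, against 0.24% and 0.23%. These are letter matches in a fixed window, given as a description with no test.

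The following 4 stretches are the 250 bases before the start of SDHA (chr5:218070-218319, plus strand), NDUFB4 (chr3:120596086-120596335, plus strand), UQCRC1 (chr3:48609647-48609896, minus strand) and NDUFA12 (chr12:95003698-95003947, minus strand), read 5′ to 3′ with NRF1 motifs in capitals, including those that read as GCGCA, any base and GCGC on the opposite strand. SDHA, NDUFB4 and UQCRC1 had higher signal in untreated Z-138 and NDUFA12 lower signal, as described below.
SDHA: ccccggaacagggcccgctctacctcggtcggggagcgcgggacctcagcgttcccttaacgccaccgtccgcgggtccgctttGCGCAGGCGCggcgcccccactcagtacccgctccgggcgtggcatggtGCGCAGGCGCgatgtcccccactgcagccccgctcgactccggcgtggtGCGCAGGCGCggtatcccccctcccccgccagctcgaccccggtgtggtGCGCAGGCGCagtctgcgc
NDUFB4: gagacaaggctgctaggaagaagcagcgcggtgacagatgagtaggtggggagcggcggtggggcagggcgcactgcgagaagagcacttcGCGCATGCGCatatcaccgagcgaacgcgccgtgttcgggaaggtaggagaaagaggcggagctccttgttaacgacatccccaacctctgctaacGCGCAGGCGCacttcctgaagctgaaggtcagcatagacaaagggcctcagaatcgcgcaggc
UQCRC1: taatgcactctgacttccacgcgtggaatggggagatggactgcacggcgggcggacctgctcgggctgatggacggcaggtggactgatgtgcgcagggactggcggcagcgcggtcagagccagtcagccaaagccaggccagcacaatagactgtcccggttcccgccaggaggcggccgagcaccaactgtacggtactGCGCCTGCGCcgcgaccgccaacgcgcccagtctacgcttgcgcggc
NDUFA12: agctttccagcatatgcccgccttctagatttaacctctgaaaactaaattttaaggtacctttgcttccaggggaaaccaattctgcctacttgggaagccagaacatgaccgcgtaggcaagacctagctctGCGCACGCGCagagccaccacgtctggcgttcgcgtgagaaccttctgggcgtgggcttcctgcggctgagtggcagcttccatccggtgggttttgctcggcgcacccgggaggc

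SDHA held 4 copies of the motif, starting at positions -166, -117, -68 and -19 from the gene start, each 49 bases after the one before. NDUFB4 held 2 copies in this stretch, at -159 and -63, UQCRC1 one at -47 and NDUFA12 one at -116. Of tested genes with a promoter, the NRF1 motif was present in 8 of 24 genes higher in untreated Z-138, in 2 of 11 that were lower and in 5 of 24 that did not pass. The ETS motif was present in 8 of 24, 2 of 11 and 8 of 24 genes of the same classes.

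The first comparison asked how the subunits differed between the lines without DOX, over 3 Z-138 and 3 Maver-1 cultures. Of the 68 tested genes, 40 differed (limma, adjusted p under 0.05), 27 higher and 13 lower in Z-138. That is 58.8%, against 60.2% of all 11548 genes (25.5% higher and 34.8% lower), so the share was close to that of the whole table. The differences were small: 4 of the 68 reached 1.5-fold, against 4428 of the 11548. The median log2 difference, Z-138 minus Maver-1, was 0.07 for the 68 genes and -0.08 for all genes tested. After scaling each array to its median, 33 subunits passed as higher and 7 as lower, a set that is not the same 40 genes. Of these calls 82.5% were higher, against 67.5% as deposited. Of all genes, 3747 were higher and 3196 lower (54.0% higher, against 42.3% as deposited). The medians were 0.20 for the subunits and 0.04 for all genes. The scaling moved both medians by about the same amount, so the subunits lay above the median of all genes either way. Under that scaling COX5A, COX7B, NDUFA1, NDUFA6, NDUFA12 and NDUFB1 no longer passed as lower (limma adjusted p from 0.0942 to 0.846).

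By array, 29 of the 68 genes had all 3 untreated Z-138 values above all 3 Maver-1 values and 17 had them all below, against 27.9% and 37.9% of all genes, and 22 overlapped. By complex, the genes higher and lower in Z-138 numbered 13 and 7 of 32 in complex I, 2 and 0 of 3 in complex II, 3 and 2 of 6 in complex III, 4 and 3 of 10 in complex IV, and 5 and 1 of 17 in complex V. Subunits of one complex did not move as a block, since both directions occurred in every complex other than complex II.

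**Figure D1:**
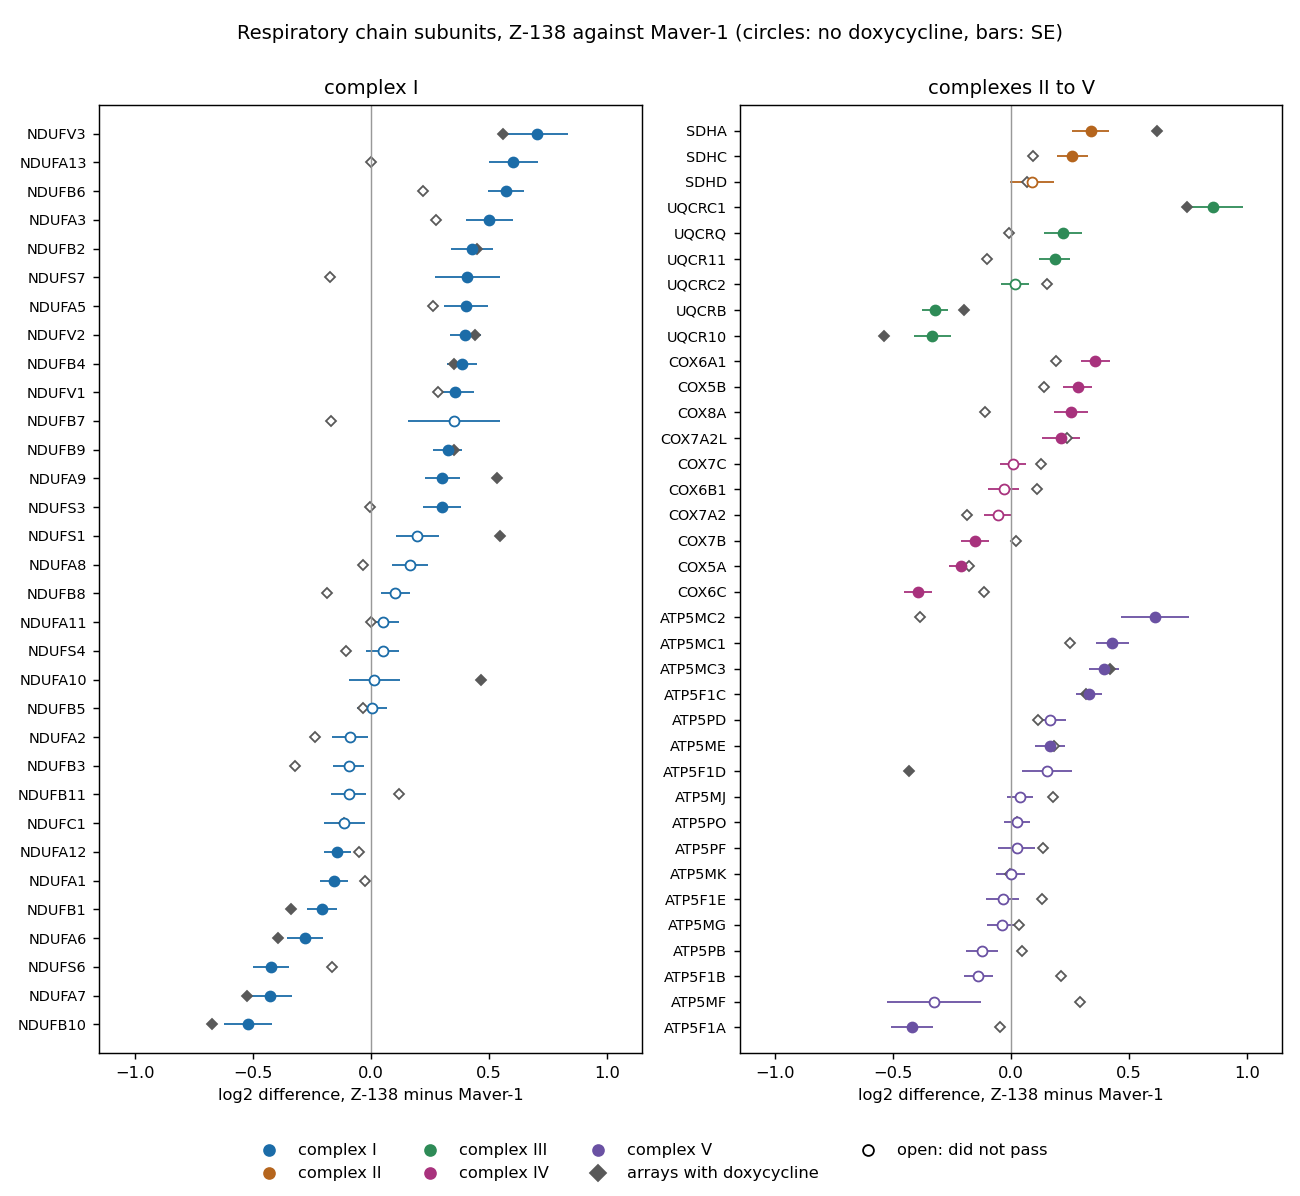
Log2 difference in signal, Z-138 minus Maver-1, for the 68 tested subunit genes, ordered within each complex; circles are untreated arrays with SE bars, diamonds the arrays with doxycycline, and filled symbols passed limma at an adjusted p of 0.05. The circles run from UQCRC1 at 0.86 to NDUFB10 at -0.52, and the diamonds of NDUFA13 and ATP5MC2 sit far from their circles.

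In complex I, the core subunits that carry out the electron transfer were represented by NDUFV1, NDUFV2, NDUFS1, NDUFS3 and NDUFS7. NDUFV1, which binds NADH and the flavin, had untreated signals of 1206.5, 1233.0 and 1212.1 in Z-138 NIKsh#1, NIKsh#2 and NTC, against 1013.2, 977.5 and 863.6 in the same Maver-1 cultures. NDUFV2, an iron-sulfur subunit beside it, had 2863.8, 2613.9 and 3011.8 in Z-138 and 2091.5, 2131.4 and 2198.8 in Maver-1. All 3 Z-138 cultures were above all 3 Maver-1 cultures for both genes, with log2 differences of 0.36 ± 0.08 for NDUFV1 (limma adjusted p = 0.0020) and 0.40 ± 0.07 for NDUFV2 (adjusted p = 0.000151), errors here and below being standard errors of the model. NDUFS3, a core subunit of the arm that faces the matrix, was higher in Z-138 by 0.30 ± 0.08 (limma adjusted p = 0.0061). NDUFS7, which carries the last iron-sulfur cluster before ubiquinone, was higher by 0.41 ± 0.14 (adjusted p = 0.0199), a call lost without the Z-138 NTC culture (adjusted p = 0.0700) or without the Maver-1 NTC culture (0.0687). NDUFS1, the largest of the iron-sulfur subunits, differed by 0.20 ± 0.09 and did not pass (adjusted p = 0.0791).

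Among the accessory subunits of complex I, NDUFV3, a subunit of the NADH-oxidising module, had untreated signals of 441.7, 462.0 and 563.1 in Z-138 and 348.3, 268.0 and 280.2 in Maver-1, with no overlap between the lines. Its log2 difference was 0.71 ± 0.13 (1.63-fold, limma adjusted p = 0.000409), and its second probe set gave 0.25. NDUFA13, also known as GRIM-19, had 1729.2, 1763.8 and 2058.1 in Z-138 and 1382.2, 1247.4 and 1033.7 in Maver-1, a difference of 0.60 ± 0.10 (adjusted p = 0.000225). NDUFB6, a membrane-arm subunit, had 1121.5, 1101.1 and 1081.6 in Z-138 and 731.8, 746.5 and 738.2 in Maver-1. The lines did not overlap, and the difference of 0.57 ± 0.08 had the smallest limma adjusted p of the 68 subunits (2.46e-05).

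NDUFB4, whose promoter is shown above, had 2220.2, 2251.2 and 2095.7 in Z-138 and 1672.2, 1616.6 and 1727.0 in Maver-1, a difference of 0.39 ± 0.06 (limma adjusted p = 0.000165). NDUFA3, NDUFB2 and NDUFA5, further accessory subunits, were higher by 0.50 ± 0.10, 0.43 ± 0.09 and 0.40 ± 0.09 in limma, all without overlap. NDUFB7, a small membrane-arm subunit, had 442.8, 461.5 and 821.2 in Z-138 against 469.0, 467.9 and 365.7 in Maver-1. Its NTC culture alone stood above the rest in Z-138, and the difference of 0.35 ± 0.19 did not pass (limma adjusted p = 0.134).

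The lower genes of complex I were all accessory subunits. NDUFB10, a membrane-arm subunit with cysteines that form disulfides, had 694.4, 797.5 and 730.1 in Z-138 and 1073.6, 923.6 and 1206.2 in Maver-1, a difference of -0.52 ± 0.10 (limma adjusted p = 0.000715). Both probe sets of NDUFB10 gave a lower level in Z-138, but the other gave only -0.13. NDUFA7 was lower by 0.43 on the log2 scale, at 465.4, 481.3 and 529.2 in Z-138 and 669.0, 679.6 and 634.4 in Maver-1 (adjusted p = 0.0015, limma). NDUFS6, which binds zinc and joins late in assembly, was lower in all 3 Z-138 cultures (-0.42 ± 0.08, limma adjusted p = 0.000312), and NDUFA6, NDUFB1, NDUFA1 and NDUFA12 differed by -0.28, -0.21, -0.16 and -0.14. The call of NDUFA1 was lost without any one of the 6 cultures (limma adjusted p up to 0.106, without Maver-1 NTC), that of NDUFA12 without any one other than Z-138 NIKsh#1 (up to 0.120, without Z-138 NIKsh#2), and that of NDUFB1 without Maver-1 NIKsh#2 (0.0636). The second probe set of NDUFB1, close to the filter, went the other way at 0.74.

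Complex II, which oxidises succinate and shares that step with the tricarboxylic acid cycle, was represented by SDHA, SDHC and SDHD. SDHA, the flavoprotein that binds succinate, had 1581.6, 1477.9 and 1486.5 in untreated Z-138 and 1159.8, 1132.2 and 1309.4 in Maver-1, a log2 difference of 0.34 ± 0.08 (limma adjusted p = 0.0022). The probe set of SDHA is of a type whose probes can match other transcripts, and SDHA has near-identical pseudogenes, so that its signal cannot be given to SDHA alone. The probe sets used for ATP5F1C, ATP5ME and NDUFB10, which were also called, are of the same type. SDHC, a membrane anchor, had 2643.9, 2359.4 and 2415.4 in Z-138 and 2050.3, 2148.2 and 1995.8 in Maver-1 (0.26 ± 0.07, limma adjusted p = 0.0040). All 7 probe sets of SDHC were higher in Z-138, by 0.20 to 1.00. SDHD, the other anchor, had 780.9, 873.2 and 886.3 in Z-138 and 789.2, 732.7 and 871.7 in Maver-1, which overlap (0.09 ± 0.09, limma adjusted p = 0.438).

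Complex III held the subunit with the largest difference of the 68. UQCRC1, a core subunit on the matrix side, had untreated signals of 240.0, 268.1 and 223.8 in Z-138 and 132.1, 131.6 and 135.4 in Maver-1. The lines did not overlap, and the difference was 0.86 ± 0.13 (1.81-fold, limma adjusted p = 5.73e-05). UQCRC2, its partner in the core, overlapped between lines, at 2279.1, 2206.0 and 2187.0 in Z-138 and 2188.8, 2149.0 and 2251.9 in Maver-1 (0.02 ± 0.06, limma adjusted p = 0.809). Of the small subunits, UQCRQ and UQCR11 were higher in Z-138 by 0.22 ± 0.08 and 0.18 ± 0.07 (limma). The call of UQCRQ was lost without any one culture other than Z-138 NTC (limma adjusted p up to 0.106, without Z-138 NIKsh#2), and that of UQCR11 without Maver-1 NTC (0.106) or Z-138 NIKsh#1 (0.0767). With all its probe sets averaged, UQCR11 differed by -0.06. UQCR10 was lower (-0.33 ± 0.08, limma adjusted p = 0.0023), with 1019.0, 1019.2 and 1067.6 in Z-138 and 1339.3, 1373.3 and 1209.0 in Maver-1, and UQCRB was lower by 0.32 on the log2 scale. The second probe set of UQCR10 gave -1.24, so both put Z-138 below Maver-1.

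**Figure D2:**
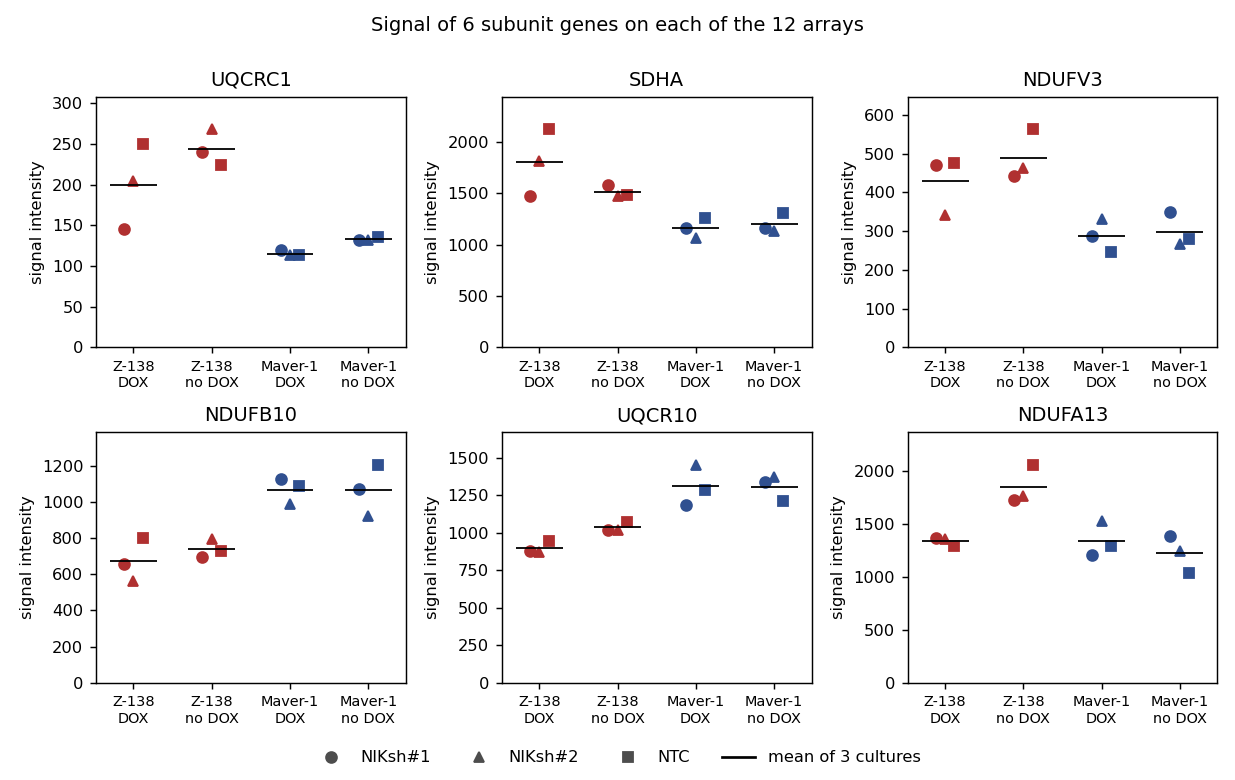
Signal intensity on each of the 12 arrays for UQCRC1, SDHA, NDUFV3, NDUFB10, UQCR10 and NDUFA13, by line and doxycycline, with a symbol per construct and a line at the mean of 3 cultures. UQCRC1 is higher in every Z-138 array than in every Maver-1 array, while the Z-138 and Maver-1 means of NDUFA13 are 1338.2 and 1342.1 with doxycycline and 1850.4 and 1221.1 without.

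In complex IV, COX6A1, the widely expressed isoform of subunit 6A, had 2609.6, 2560.5 and 2678.2 in Z-138 and 2124.8, 2068.4 and 1935.6 in Maver-1, higher by 0.36 ± 0.06 (limma adjusted p = 0.000226). COX5B and COX8A were also higher, by 0.28 ± 0.06 and 0.25 ± 0.07, as was COX7A2L, a factor that joins complexes III and IV into supercomplexes (0.21 ± 0.08, limma adjusted p = 0.0338, with overlap between the arrays of the lines). The call of COX7A2L was lost without Maver-1 NIKsh#1, Maver-1 NTC, Z-138 NIKsh#1 or Z-138 NTC (limma adjusted p up to 0.133, without Z-138 NIKsh#1). COX6C was the gene of complex IV with the strongest lower signal, at 2768.8, 2474.3 and 2789.4 in Z-138 and 3539.7, 3494.9 and 3509.0 in Maver-1 (-0.39 ± 0.06, limma adjusted p = 8.29e-05). COX5A was lower by 0.21 and COX7B by 0.15 on the log2 scale. The call of COX7B was lost without Maver-1 NIKsh#2, Maver-1 NTC, Z-138 NIKsh#2 or Z-138 NTC, at a limma adjusted p up to 0.130 (without Maver-1 NTC). COX6B1, COX7A2 and COX7C did not pass (limma adjusted p = 0.692, 0.451 and 0.901).

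In complex V, ATP5MC1, ATP5MC2 and ATP5MC3 encode the same mature c subunit of the rotor ring, and all were higher in untreated Z-138. ATP5MC3 had 4121.3, 3878.1 and 4270.7 in Z-138 and 3004.9, 3350.5 and 2988.3 in Maver-1 (0.39 ± 0.06, limma adjusted p = 0.000103). ATP5MC1 had 1827.4, 1808.5 and 1987.7 in Z-138 and 1384.5, 1460.3 and 1327.4 in Maver-1 (0.43 ± 0.07, limma adjusted p = 0.000165). ATP5MC2 had 1156.4, 1332.0 and 1349.7 in Z-138 and 978.6, 961.6 and 619.3 in Maver-1 (0.61 ± 0.15, limma adjusted p = 0.0027), its lowest value being that of Maver-1 NTC. None of the 3 overlapped between the lines, and ATP5MC2 had the largest standard error of the 3. With all its probe sets averaged, ATP5MC2 differed by 0.22 and did not pass (limma adjusted p = 0.355). The other probe set of ATP5MC2 lay under the filter, with a mean signal of 3.5.

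Within the catalytic head of complex V the genes divided. ATP5F1C, the rotating gamma shaft, had 3192.2, 3243.3 and 3170.1 in Z-138 and 2556.0, 2450.7 and 2643.8 in Maver-1 (0.33 ± 0.06, limma adjusted p = 0.000201). ATP5F1A, the alpha subunit, had 3221.2, 2447.8 and 3090.9 in Z-138 and 3691.1, 3881.6 and 4074.2 in Maver-1, which is lower in Z-138 (-0.42 ± 0.09, limma adjusted p = 0.0011). With all its probe sets averaged, ATP5F1A differed by -0.11 and did not pass (limma adjusted p = 0.628). The other probe set of ATP5F1A lay under the filter, with a mean signal of 10.9. ATP5F1B, the catalytic beta subunit, lay below Maver-1 in all 3 Z-138 cultures but did not pass (-0.14 ± 0.06, limma adjusted p = 0.0678). ATP5F1D and ATP5F1E, of the central stalk, overlapped between lines. The 4 genes of the peripheral stalk, ATP5PB, ATP5PD, ATP5PF and ATP5PO, did not pass in limma, with log2 differences from -0.12 for ATP5PB to 0.17 for ATP5PD. ATP5ME, a small membrane subunit, was higher by 0.17 ± 0.06 (limma adjusted p = 0.0374), a call lost without Maver-1 NIKsh#1, Maver-1 NIKsh#2, Z-138 NIKsh#1 or Z-138 NTC (adjusted p up to 0.144, without Maver-1 NIKsh#1). ATP5MF, another membrane subunit, was read by a dim probe set (mean signal 42.7) and did not pass (-0.33 ± 0.20, limma adjusted p = 0.175).

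Other probe sets of the same genes give a partial check. For 21 of the 40 genes there were 34 further probe sets above the filter, and 32 of them had the sign of the one used. For 2 symbols of complex I that were not tested, signals alone can be given. The pair of probe sets shared by NDUFC2 and its read-through transcript had log2 differences of -0.57 and -0.98, and the 3 probe sets of NDUFS8, shared with microRNA genes, had 0.52, -0.03 and -0.44.

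The line difference was measured again in the DOX arrays of the same cultures, which are not independent cultures. There, 19 of the 68 genes passed (12 higher and 7 lower in Z-138), against 36.3% of all genes. Of the 40 genes called without DOX, 16 (40%) had the same call with DOX, 33 had the same sign and 0 had the opposite call. Over all genes, 3732 of 6956 (53.7%) had the same call and 3 the opposite one. The 10 genes higher both times were NDUFA9, NDUFB2, NDUFB4, NDUFB9, NDUFV2 and NDUFV3 of complex I, SDHA, UQCRC1, and ATP5F1C and ATP5MC3 of complex V. The 6 lower both times were NDUFA6, NDUFA7, NDUFB1 and NDUFB10 of complex I and UQCR10 and UQCRB of complex III.

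UQCRC1 had DOX signals of 145.3, 204.9 and 250 in Z-138 NIKsh#1, NIKsh#2 and NTC and 119.2, 113.8 and 113.0 in Maver-1, without overlap (0.75 ± 0.23, limma adjusted p = 0.0328). SDHA had 1472.8, 1816.1 and 2124.8 in Z-138 and 1160.7, 1068.1 and 1261.5 in Maver-1, also without overlap (0.62 ± 0.14, limma adjusted p = 0.0081). NDUFA13, by contrast, had 1366.6, 1353.8 and 1294.2 in Z-138 with DOX and 1210.4, 1522.9 and 1293.1 in Maver-1, a difference of 0.00 ± 0.11 (limma adjusted p = 0.990). ATP5MC2 had 1365.1, 780.6 and 550.9 in Z-138 and 896.4, 1574.5 and 931.2 in Maver-1, a difference of -0.39 ± 0.32 whose sign is opposite to that without DOX and which did not pass (limma adjusted p = 0.381). The other called genes of opposite sign with DOX were NDUFS7 (-0.17), COX8A (-0.11), UQCR11 (-0.10), UQCRQ (-0.01), NDUFS3 (-0.00) and COX7B (0.02), none of which passed with DOX. With the ACTB ratio of each array as a covariate in the untreated comparison, 11 of the 68 genes passed (8 higher and 3 lower), against 34.6% of all genes. UQCRC1 (0.96, adjusted p = 0.0053), NDUFB6 (0.58, adjusted p = 0.0052), NDUFA3, NDUFA5, NDUFB4, NDUFV2, SDHA, ATP5F1C, NDUFA7, COX6C and UQCR10 still passed in limma. Among those that no longer passed in limma were NDUFV3 (0.60, adjusted p = 0.0657), NDUFB10 (-0.20, adjusted p = 0.337), NDUFA13 (0.27, adjusted p = 0.202) and ATP5MC2 (0.02, adjusted p = 0.946). Since the ratio had no overlap between the untreated lines, the effects of line and ratio cannot be told apart in these 6 arrays.

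The comparison that the hairpins were made for asked which subunits changed with DOX in the 4 NIKsh cultures. In limma 0 of the 68 subunits passed, against 5 of 11548 genes (0.0433%), and 4 subunits had an unadjusted p under 0.05, against 8.98% of all genes. The median log2 change was -0.01 for the subunits and 0.01 for all genes, and 0 subunits changed by 1.5-fold, against 451 of all genes. In bulk RNA, fewer cells of a kind and less RNA per cell could not be told apart.

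The values of the 4 subunits of smallest p follow, although none passed. NDUFV1 had DOX signals of 887.7 and 1095.3 in the Z-138 cultures with NIKsh#1 and NIKsh#2 and of 802.8 and 883.3 in the Maver-1 cultures with NIKsh#1 and NIKsh#2, against 1206.5, 1233.0, 1013.2 and 977.5 in the same cultures without DOX. All 4 pairs were lower with DOX, at -0.27 ± 0.09 (limma adjusted p = 0.362), whereas the Z-138 NTC and Maver-1 NTC pairs had 0.11 and 0.20. This holds for the probe set used, and with probe sets averaged the Maver-1 NIKsh change of NDUFV1 was 0.073. UQCRC1 had 145.3, 204.9, 119.2 and 113.8 with DOX, against 240.0, 268.1, 132.1 and 131.6 without, at -0.36 ± 0.16 (limma adjusted p = 0.529). Its NTC pairs differed in sign, with 0.16 in Z-138 and -0.25 in Maver-1.

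NDUFS7 had 129.1, 157.4, 192.0 and 152.5 with DOX, against 242.9, 223.2, 194.1 and 203.1 without, at -0.45 ± 0.18 (limma adjusted p = 0.488). Its Maver-1 NIKsh#1 pair was nearly level at -0.02, and its Z-138 NTC pair had -0.72. ATP5F1E, the epsilon subunit at the foot of the central stalk, had 5287.7, 4751.0, 4428.7 and 4654.9 with DOX, against 4435.7, 4345.8, 4058.7 and 4151.2 without, at 0.17 ± 0.06 (limma adjusted p = 0.450). All 4 NIKsh pairs were higher, as was the Z-138 NTC pair at 0.33, while the Maver-1 NTC pair had -0.08.

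The same sign in all 4 NIKsh pairs was found for 8 subunits. ATP5MG, NDUFB7, NDUFS7, NDUFV1, NDUFV2 and UQCRC1 were lower (8.8%, against 8.29% of all genes), and ATP5F1E and NDUFA11 were higher (2.9%, against 9.95%). Of these, NDUFV1 alone, by the probe set used, had both NTC pairs on the other side of 0.

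**Figure D3:**
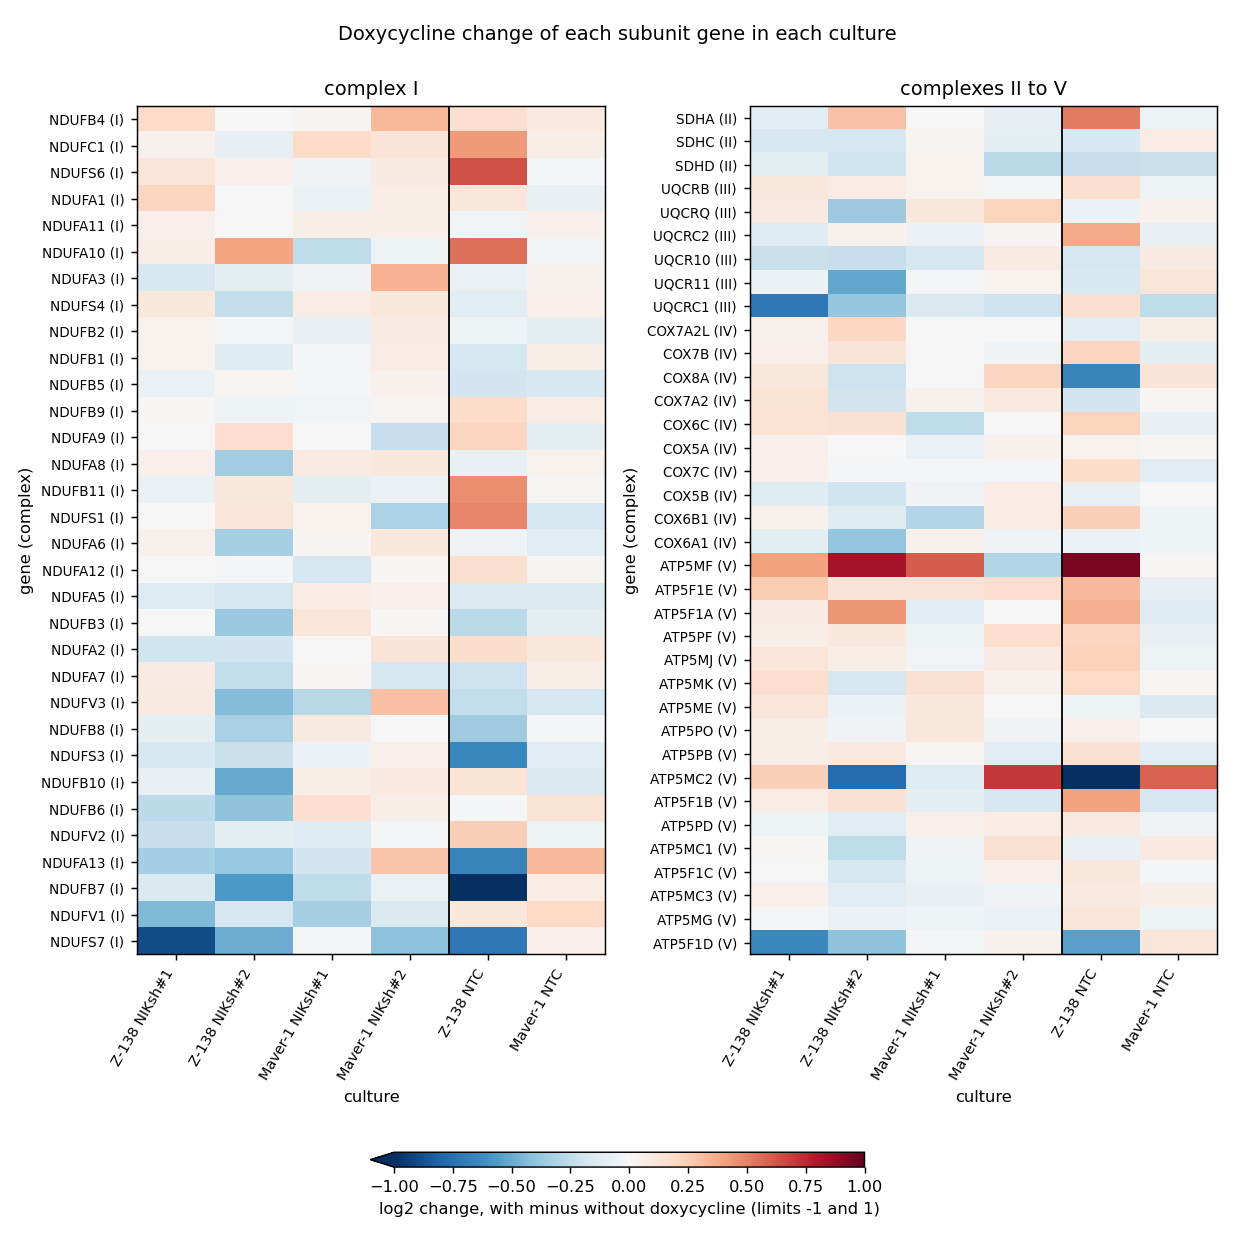
Log2 change with doxycycline, DOX minus no DOX, of the 68 subunit genes (rows, with the complex in brackets) in the 4 NIKsh and the 2 NTC cultures (columns, parted by a line); red is higher and blue lower with DOX, and values under -1 have the colour of -1. The Z-138 columns carry stronger colours than the Maver-1 columns, and few rows have one colour throughout.

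In the 2 NTC cultures, where DOX induced a hairpin without a target, 0 of the 68 subunits passed in limma and 2 had an unadjusted p under 0.05 (all genes: 0 passed, 0%, and 3.35%). The 4 of smallest p were NDUFS3 (-0.38 ± 0.13), NDUFS6 (0.31 ± 0.14), NDUFB5 (-0.17 ± 0.08) and NDUFB7 (-0.51 ± 0.25), each with a limma adjusted p of 0.895. The values of NDUFS6 and NDUFB7 came from Z-138 NTC, at 0.64 and -1.09, and without that culture they were -0.02 and 0.07. NDUFS3 had a lower signal with DOX in both NTC cultures, with changes of -0.65 for Z-138 and -0.11 for Maver-1.

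The contrast of NIKsh with NTC asks what goes beyond induction as such, and in limma 0 subunits passed, with 1 at an unadjusted p under 0.05 (all genes: 0 passed, 0%, and 5.43%). NDUFV1 had the smallest p, with a difference between the NIKsh and NTC changes of -0.43 ± 0.15 (limma adjusted p = 0.884). By the probe set used, its 4 NIKsh changes all lay below its 2 NTC changes. NDUFV2 (-0.22 ± 0.12), NDUFB11 (-0.27 ± 0.16) and NDUFS3 (0.28 ± 0.16) followed, each with an adjusted p of 0.884 in limma. The median difference was -0.03 for the subunits and -0.03 for all genes.

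Taken by line, the Z-138 NIKsh pairs gave 0 subunits in limma, against 2.14% of all genes (247), with 12 subunits at an unadjusted p under 0.05 (17.6%, against 16.2% of all genes). The 4 of smallest p were ATP5F1E (0.19 ± 0.05, adjusted p = 0.108), ATP5F1D (-0.52 ± 0.15, 0.117), NDUFS7 (-0.70 ± 0.21, 0.143) and ATP5F1A (0.26 ± 0.08, 0.163). ATP5F1D, the delta subunit of the central stalk, had 351.2 and 407.1 with DOX in NIKsh#1 and NIKsh#2, against 551.0 and 538.8 without. The Z-138 NTC pair moved likewise, with 449.2 with DOX and 657.5 without, a change of -0.55. ATP5F1A had 3415.1 and 3321.1 with DOX, against 3221.2 and 2447.8 without, and 3955.9 against 3090.9 in Z-138 NTC. The direction of ATP5F1A turned with its probe sets averaged (-0.24) and with the ACTB ratio as a covariate (-0.77). That average takes in a probe set under the filter (mean signal 10.9). In the covariate fit the slope rested only on the gap in log2 ratio change between the NIKsh pairs of each line. Those changes were 0.69 and 0.80 in Z-138 and -0.12 and 0.06 in Maver-1. With gaps this small, the covariate fit cannot settle the direction. Without Z-138 NIKsh#1, ATP5F1A passed as higher (0.44, limma adjusted p = 0.0062) and ATP5MC2, COX6A1 and UQCR11 as lower, which is 4 of 68 against 7.95% of all genes. That fit has 1 Z-138 NIKsh pair and takes its spread from the Maver-1 NIKsh pairs alone. Fits without a Maver-1 NIKsh culture take theirs from the Z-138 NIKsh pairs alone. ATP5F1A and ATP5F1E passed without Maver-1 NIKsh#1 (4.62% of all genes) and without Maver-1 NIKsh#2 (4.54%).

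The Maver-1 NIKsh pairs gave 0 subunits in limma, against 0% of all genes, with 1 subunit, ATP5F1E (0.15 ± 0.05), at an unadjusted p under 0.05 (all genes 3.97%). NDUFV1, ATP5F1B and NDUFB4 followed at -0.24 ± 0.12, -0.13 ± 0.06 and 0.18 ± 0.10, all with an adjusted p of 0.998 in limma. The change of NDUFV1 was 0.073 with its probe sets averaged. The difference between the lines, Z-138 minus Maver-1, gave 0 subunits in limma, against 0.121% of all genes, and 6 at an unadjusted p under 0.05 (all genes 8.59%). NDUFB6 (-0.45 ± 0.16), ATP5F1A (0.32 ± 0.12), COX6C (0.27 ± 0.10) and ATP5F1B (0.24 ± 0.09) had the smallest p, with limma adjusted p from 0.501 to 0.520. The differences of ATP5F1A and NDUFB6 turned direction with probe sets averaged (-0.11 and 0.088) and with the ACTB covariate (-0.75 and 0.16), and that of COX6C with the ACTB covariate (-0.57). The averages take in second probe sets of low mean signal, 10.9 for ATP5F1A, which is under the filter, and 21.7 for NDUFB6. The covariate fit has the limit given above and cannot settle these directions. Fits without a NIKsh culture take their spread from the NIKsh pairs of the other line. Without Z-138 NIKsh#1, which leaves 1 Z-138 NIKsh pair, the difference passed for ATP5F1A (0.50, limma adjusted p = 0.0193), ATP5MC2 and UQCR11, against 3.66% of all genes. Without Maver-1 NIKsh#1 it passed for ATP5MC2, against 0.39% of all genes.

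The changes of the subunits had a smaller SD than those of all genes tested, without a test. Over the 68 genes it was 0.211, 0.259 and 0.373 in the Z-138 cultures with NIKsh#1, NIKsh#2 and NTC, against 0.460, 0.513 and 0.541 over all genes tested. In Maver-1 it was 0.136, 0.165 and 0.126 in the same order of cultures, against 0.301, 0.351 and 0.264 over all genes. Most subunits lie high in signal, and the part of signal level in this was not tested. Across the 68 genes, Z-138 NTC and Z-138 NIKsh#2 had changes that correlated at r = 0.762 (0.278 over all genes), and Z-138 NIKsh#1 correlated at 0.321 with NTC and 0.433 with NIKsh#2. In Maver-1, r was -0.146 between NIKsh#1 and NIKsh#2, -0.076 between NIKsh#1 and NTC and 0.499 between NIKsh#2 and NTC, and it was -0.466 between the NTC cultures of both lines. Genes of one array are not independent replicates, and these cultures share no array, so r is given as a description.

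Chromosome 19 held more of the genes than any other chromosome, with 11 of the 73, of which 9 were tested: ATP5F1D, COX6B1, NDUFA3, NDUFA7, NDUFA11, NDUFA13, NDUFB7, NDUFS7 and UQCR11. This division was made after the values were seen and has no test. Their median change with DOX was -0.15 in Z-138 NIKsh#1, -0.38 in NIKsh#2 and -0.21 in NTC, against 0.04, -0.08 and 0.11 for the other 59 subunits. In Maver-1 the medians were -0.02, 0.05 and 0.06 on chromosome 19, against -0.00, 0.04 and -0.03 elsewhere. In Z-138 NIKsh#2 and NTC, 8 of the 9 genes were lower with DOX, and 6 of 9 in NIKsh#1. In Maver-1 NIKsh#1, NIKsh#2 and NTC, 7, 3 and 1 of the 9 were lower. Of the 59 other subunits, 21, 39 and 24 were lower in Z-138 NIKsh#1, NIKsh#2 and NTC and 32, 22 and 36 in the same Maver-1 cultures.

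NDUFS7 had changes of -0.90, -0.50 and -0.72 in Z-138 NIKsh#1, NIKsh#2 and NTC, NDUFB7 had -0.15, -0.57 and -1.09, and NDUFA13 had -0.34, -0.38 and -0.67. All 853 tested genes of chromosome 19 had medians of -0.10, 0.10 and 0.00 in the same cultures. Beside this, the log2 ACTB ratio changed with DOX by 0.69, 0.80 and 1.45 in Z-138 NIKsh#1, NIKsh#2 and NTC, and by -0.12, 0.06 and -0.64 in Maver-1. The part of RNA quality in these medians was not tested.

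**Figure D4:**
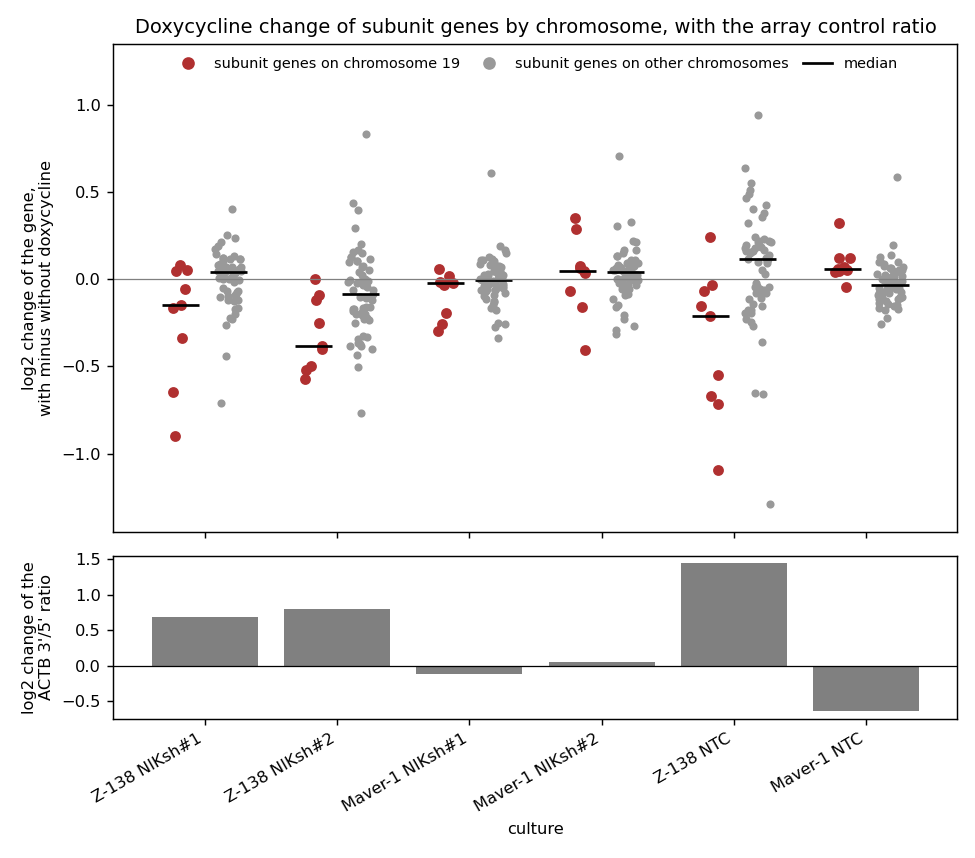
Above, log2 change with doxycycline of subunit genes on chromosome 19 (red, 9 genes) and on other chromosomes (grey, 59 genes) in each culture, with medians as black lines; below, the log2 change of the ACTB 3' to 5' ratio of the same culture as bars. The red medians are -0.15, -0.38 and -0.21 in the Z-138 cultures, where the bars are 0.69, 0.80 and 1.45, and lie between -0.02 and 0.06 in Maver-1.

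Genes that serve the chain without being among the 73 were set beside it. In the untreated line comparison 60.2% of all genes passed. The share was 57.4% for assembly factors, 62.5% for the tricarboxylic acid cycle, 38.5% for the regulators and 57.1% for chain genes outside the symbol rule. Of 47 assembly factors, 14 were higher and 13 lower in untreated Z-138 (limma), with a median of 0.04, and single genes moved further than any subunit. SCO1, a copper chaperone of complex IV, differed by 1.28 ± 0.11, and TMEM126B, a complex I factor, by -1.06 ± 0.08. Of 16 genes of the tricarboxylic acid cycle, 5 were higher and 5 lower, led by IDH3G (-1.46 ± 0.10), SUCLG2 (1.04 ± 0.10) and SUCLA2 (0.81 ± 0.09). Of 13 regulators of mitochondrial biogenesis, 3 were higher (TFB1M at 1.21, TFB2M at 0.40 and MYC at 0.39) and 2 lower, POLRMT at -0.47 and PPRC1 at -0.33. NRF1, GABPA and YY1 themselves did not pass, at 0.21, -0.02 and -0.14. Of 7 chain genes outside the symbol rule, DMAC2L was higher (1.504 ± 0.159), and CYC1 (-0.43 ± 0.12), ATP5IF1 (-0.49 ± 0.15) and COX4I1 (-0.18 ± 0.06) were lower. With DOX, 1 gene of these 4 lists passed in any comparison: COA1, an assembly factor of complexes I and IV, fell by 0.50 on the log2 scale in Z-138 NIKsh (limma adjusted p = 0.0408). That is 1 of 47 assembly factors, a share like that of all genes in the same comparison (2.14%). Among marker genes of other cell types, PECAM1 fell by 1.77 in the same comparison (limma adjusted p = 0.0237). With the ACTB ratio as a covariate 0 of the 11548 genes passed in that comparison, COA1 and PECAM1 included. That covariate fit has the limit given above for ATP5F1A, so no conclusion is drawn from it.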

How the data were processed

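RNA of 6 cultures, each with and without DOX, was amplified with a NuGEN Ovation kit, labelled with biotin and hybridised to 1 Affymetrix array per sample, 12 in all. Per the submitters' processing notes, the authors made the deposited signal intensities with MAS5; the values are linear, and the trimmed mean (2 percent off either end) equals 150.02 on each array, which shows a common scaling. Detection calls were not used here, and the genome build behind the annotation is not given in the sources used here.

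Probe sets were named from the platform annotation. Of 54675, 41097 carried 1 symbol, 1801 carried several, and 62 were controls. Each gene was read by its single-symbol probe set of highest mean log2(signal + 3), and genes with a mean signal of at least 12.55 were tested. Models were fitted in limma 3.58.1 (R 4.3.3) with a mean-variance trend, two-sided tests and Benjamini-Hochberg adjustment over 11548 genes at 0.05. Fold changes are on the log2(signal + 3) scale, which understates those of low genes. DOX comparisons used all 12 arrays with culture as a block. Comparisons over both lines had a DOX effect for NIKsh and another for NTC. Those by line came from a second fit, with its own DOX effect for each line and hairpin kind. There each NTC pair was fitted exactly, so the spread between cultures came from the NIKsh pairs alone. Without a NIKsh culture it came from the NIKsh pairs of the other line. Both arrays of a pair share line and construct and were taken as one culture. The line comparison used the 6 untreated arrays. As a check of that pairing, deviations of same-hairpin arrays without and with DOX had r = -0.04 for Z-138 and r = 0.20 for Maver-1, which is little or no correlation. The models were tested on simulated data. Python 3.11.15 with pandas 2.3.3 and matplotlib 3.10.9 made the other tables and the plots.

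The genes, lists and tests were chosen with earlier results of these data known. Full statistics are given for genes that passed, up to 12 in each direction, for the 4 of smallest p where fewer passed, and for core subunits and paired isoforms. The lists were assembly factors, the tricarboxylic acid cycle, regulators of mitochondrial biogenesis and chain genes outside the symbol rule. Markers of B cells, mantle cell lymphoma and other cells were listed as well. CCND1 and SOX11 of the lymphoma list had mean signals of 936 and 2623 in Z-138 and 2825 and 826 in Maver-1. Alternatives were the pseudocount (1 or 16), the filter, scaling, averaging probe sets, the ACTB ratio as a covariate, the block, DOX arrays, culture means, and leaving out each culture.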

Additional observations from a re-analysis of the deposited data

Results flagged for a closer look

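The DOX changes of the 68 subunits and of 6 medians (of the complexes and of all subunits) were examined over the 4 NIKsh cultures. For 10 subunits both Z-138 cultures moved one way and both Maver-1 cultures the other way, which is 14.7% of the 68, against 12.4% of all genes. The difference between the lines was tested in limma and did not pass for any of the 10.

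The difference, Z-138 minus Maver-1, was 0.32 on the log2 scale for ATP5F1A, with changes of 0.08 and 0.44 in Z-138 and -0.11 and -0.00 in Maver-1 (limma adjusted p = 0.504). It was -0.451 for NDUFB6, with -0.26 and -0.40 in Z-138 and 0.17 and 0.07 in Maver-1 (limma adjusted p = 0.501). Both turned direction with probe sets averaged (-0.11 for ATP5F1A and 0.088 for NDUFB6) and with the ACTB covariate (-0.75 for ATP5F1A and 0.16 for NDUFB6). The second probe sets in these averages had mean signals of 10.9 for ATP5F1A, under the filter, and 21.7 for NDUFB6. The covariate fit rested on small gaps in ratio change between NIKsh pairs and cannot settle these directions. The other differences above 0 were 0.387 for NDUFA10, 0.239 for ATP5F1B and 0.105 for COX7B. Those below 0 were -0.372 for NDUFB10, -0.259 for NDUFB8, -0.255 for NDUFB3, -0.211 for NDUFA5 and -0.14 for ATP5PD. The limma adjusted p of these 8 ran from 0.520 for ATP5F1B to 0.768 for ATP5PD.

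By Dixon's criterion at the 95% level, which chance meets in about 1 group of 20, 1 culture stood apart from the other NIKsh cultures for 6 of the 74 items. This was Z-138 NIKsh#2 for UQCR11 (-0.523), NDUFA8 (-0.345) and NDUFS4 (-0.236), Z-138 NIKsh#1 for COX7C (0.047), Maver-1 NIKsh#1 for NDUFA12 (-0.167) and Maver-1 NIKsh#2 for UQCR10 (0.08).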

How the results depend on the processing

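The untreated line comparison called 40 of 68 subunits, against 60.2% of all genes. It gave 11 with the ACTB ratio as a covariate (34.6% of all genes) and 19 in the arrays with DOX (36.3%). Leaving out 1 culture at a time gave 33 to 37, against 54% to 58.8% of all genes. The construct as a replicate block gave 32 (23 higher and 9 lower), against 56.8% of all genes. Those 32 were without ATP5ME, COX7A2L, COX7B, NDUFA1, NDUFA12, NDUFB1, UQCR11 and UQCRQ. Median scaling gave 33 higher and 7 lower, against 60.1% of all genes. Without 1 culture, the subunits called in Z-138 NIKsh numbered 0 to 4 and those in the difference between the lines 0 to 3, the highest counts both being without Z-138 NIKsh#1. Every other DOX comparison gave 0 under every alternative run, and all 6 gave 0 with no replicate block. Counts over all genes rest on 11548 tested genes, but on 19775 with no filter, 4944 under the 75th percentile filter and 10795 with probe sets averaged. The untreated count of 6956 was 2999 under the 75th percentile filter, where the share called was 60.7%, against 60.2%. For Z-138 NIKsh the share under that filter was 1.98%, against 2.14%. The untreated count was 4001 with the ACTB covariate and 4194 in the DOX arrays. The NIKsh count of 5 was 3 with no filter, 1 under the 75th percentile filter, 16 with no replicate block and 0 to 5 with 1 culture left out. The Z-138 NIKsh count of 247 was 164 with no filter, 98 under the 75th percentile filter, 112 with probe sets averaged, 0 with the ACTB covariate and 248 to 918 with 1 culture left out. The Maver-1 NIKsh count of 0 was 3 with the ACTB covariate and 0 to 42 with 1 culture left out. For the difference between the lines, the count of 14 was 9 with no filter, 1 with probe sets averaged, 0 with the ACTB covariate and 9 to 423 with 1 culture left out, the highest without Z-138 NIKsh#1.

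Of the 40 subunits called between the untreated lines and the 4 of smallest p in each DOX comparison, the direction turned in these cases, and the cause was not tested. With probe sets averaged, ATP5F1A had -0.24 in Z-138 NIKsh and -0.11 in the difference between the lines, NDUFV1 had 0.073 in Maver-1 NIKsh, NDUFB6 had 0.088 in the difference between the lines, and NDUFB1 and UQCR11 had 0.27 and -0.064 between the untreated lines. The other probe set of ATP5F1A lay under the filter (mean signal 10.9). Those of NDUFB6 and NDUFB1 had mean signals of 21.7 and 15.2. With the ACTB covariate, ATP5F1A had -0.77 in Z-138 NIKsh, and the difference between the lines was -0.75 for ATP5F1A, 0.16 for NDUFB6 and -0.57 for COX6C. These covariate values, and the covariate counts by line, rest on small gaps in ratio change between NIKsh pairs and settle no direction. In the DOX arrays the line difference was -0.39 for ATP5MC2, -0.17 for NDUFS7, -0.11 for COX8A, -0.104 for UQCR11, -0.011 for UQCRQ, -0.0043 for NDUFS3 and 0.022 for COX7B. The NTC change ran from -0.020 (without Z-138 NTC) to 0.64 (without Maver-1 NTC) for NDUFS6 and from -1.09 (without Maver-1 NTC) to 0.071 (without Z-138 NTC) for NDUFB7. With 1 NTC pair left, that pair is assumed to vary like the others. In all, 896 of the alternatives' values for these subunits kept direction and side of the threshold, 114 lost the call, 6 gained one and 19 turned direction.

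With 1 array per culture and condition, changes smaller than the spread between cultures were not detectable, and signals near the background of the arrays carry little information on the low isoforms of complex IV.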
